A study of Danio rerio with 6 samples.

Results

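The myelin genes are a list of 10 genes of the myelin sheath and of its transcriptional control, chosen by gene symbol: plp1a, plp1b, mbpa, mbpb, mpz, mag, cldnk, cldn19, sox10 and myrf. Of these, 8 were measured here, among 14781 genes in all, and all 8 passed the filter on low counts that left 12804 genes for testing. The genes mbpa and myrf were not analysed here.

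Myelin is the stack of lipid-rich membrane that glia wrap around axons, made by oligodendrocytes in the central nervous system and by Schwann cells in peripheral nerves. Its compact layers are held together by a small set of very abundant proteins, and its edges are sealed by adhesion and junction proteins. A transection of the cord cuts the myelinated axons that run along it, and zebrafish, unlike adult mammals, regrow axons and rebuild cord tissue across the lesion.

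Bulk RNA-seq was run on 3 injured and 3 sham spinal cord libraries of adult Ekkwill zebrafish of both sexes. Injured fish had a complete cord transection and were sampled at 1 week post-injury (1 wpi), and the sham fish were clutchmates whose cord was exposed through an incision and left intact. The injured tissue reached 2 mm rostral and 2 mm caudal from the lesion. How many fish went into a library is not stated in the sources used here, so p-values reflect only how these samples vary, which may be technical.

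Reads counted in genes numbered 21926842 to 30147448 in injured libraries and 19310220 to 24161526 in sham libraries. Sham replicate 1 stood apart from the other sham libraries. The fold changes of the myelin genes and the counts of the lists are given with and without that library. Among the injured libraries replicate 1 differed most from the others. Skeletal muscle genes took 6.03% of its reads in genes, against 1.95% and 2.54% in injured replicates 2 and 3. In the comparison of all 6 libraries by edgeR's quasi-likelihood test, 10.6% of the 12804 genes passed an adjusted p of 0.05, with 744 higher and 618 lower in injured cords. The split was 456 higher and 1006 lower when libraries were scaled by their totals alone. Without sham replicate 1, in a fit of 3 injured and 2 sham libraries, 57.2% of genes passed. With any other library left out 0 genes passed. At an unadjusted p under 0.05, 1550 to 1672 genes were then higher and 1476 to 1792 lower. By DESeq2, 29.4% of genes passed with all 6 libraries. The 13 tested genes of the neuronal list and the 13 of the ependymo-radial glia list had reads, which the filter on low counts requires of every tested gene. Their detection is therefore no check of spinal cord identity. Of the neuronal list, gap43 was listed at 0 in every library. Whether its reads were missed in counting was not tested, so this value does not show absence of expression.

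At 1 wpi the myelin genes did not move as a block. Only plp1a, of the 8 measured, passed the test, and its level was 1.6-fold higher in injured than in sham cords. The gene mag was 1.39-fold higher and just missed the threshold. The most heavily counted genes of the list, plp1b and mbpb, had lower mean levels in injured cords. These differences did not pass the test with all libraries. They passed without sham replicate 1, in a fit of 3 injured and 2 sham libraries where 57.2% of all genes passed. That fit leaves out the lowest sham value of both genes, so passing there is no separate support for a fall. The genes mpz, cldnk and sox10 had overlapping groups, as plp1b also did. Their log2 fold changes of 0.10, 0.11 and 0.17 did not pass. The counts of 1 higher and 0 lower of 8 stand beside 5.81% of all genes called higher and 4.83% called lower. At an unadjusted p under 0.05, 3 of the 8 were higher and 0 lower, beside 38.2% of all genes in either direction. The median log2 fold change of the 8 genes was 0.14, with 6 above 0, and that of all genes tested was -0.029. Levels are given as CPM, the reads of a gene per 1000000 reads in genes of its library after TMM scaling, and fold changes are injured over sham.

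The transcription factor Sox10 is needed for the differentiation of both oligodendrocytes and Schwann cells and switches on many myelin genes. The level of sox10 was 200.5, 200.7 and 210.1 CPM in injured replicates 1, 2 and 3, against 154, 190.3 and 201 CPM in sham replicates 1, 2 and 3. The injured libraries lay close together and the highest sham library lay among them. The log2 fold change was 0.17 (SE 0.114, adjusted p = 0.321, edgeR), with a 95% interval from -0.11 to 0.44. Leaving out sham replicate 1 gave 0.059 (adjusted p = 0.366). The expression of sox10 therefore gave no detectable difference in either set of libraries.

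The genes plp1a and plp1b belong to the structural genes of the sheath. The level of plp1a was 132, 122 and 128 CPM in injured cords, against 78.9, 76.8 and 82.4 CPM in sham cords. Every injured library was above every sham library, and sham replicate 1 lay between the other sham libraries. Means were 127 ± 4.73 CPM in injured and 79.4 ± 2.84 CPM in sham cords (SD, n = 3 each). The log2 fold change was 0.68 (SE 0.0645, adjusted p = 0.0281, edgeR), with a 95% interval from 0.52 to 0.84. It was 0.68 without sham replicate 1 as well (adjusted p = 0.000309). With any other single library left out it was 0.66 to 0.71, but the adjusted p was 0.105 to 0.169 in edgeR, where no gene passed, and at most 2.55e-09 in DESeq2.

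The gene plp1b had 3541, 3610.0 and 3565 CPM in injured cords, against 3275, 4972 and 5216 CPM in sham cords. The injured libraries were nearly equal, with a coefficient of variation of 0.977%, while sham replicate 1 was below every injured library and the other sham libraries were above them all. The log2 fold change was -0.33 (SE 0.20, adjusted p = 0.265, edgeR), and its 95% interval reached from -0.82 to 0.16. Without sham replicate 1 it was -0.51 (adjusted p = 0.000361). With any other single library left out it was -0.33 to -0.21. The adjusted p was then 0.451 to 0.557 in edgeR and 0.348 to 0.525 in DESeq2.

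**Figure D1:**
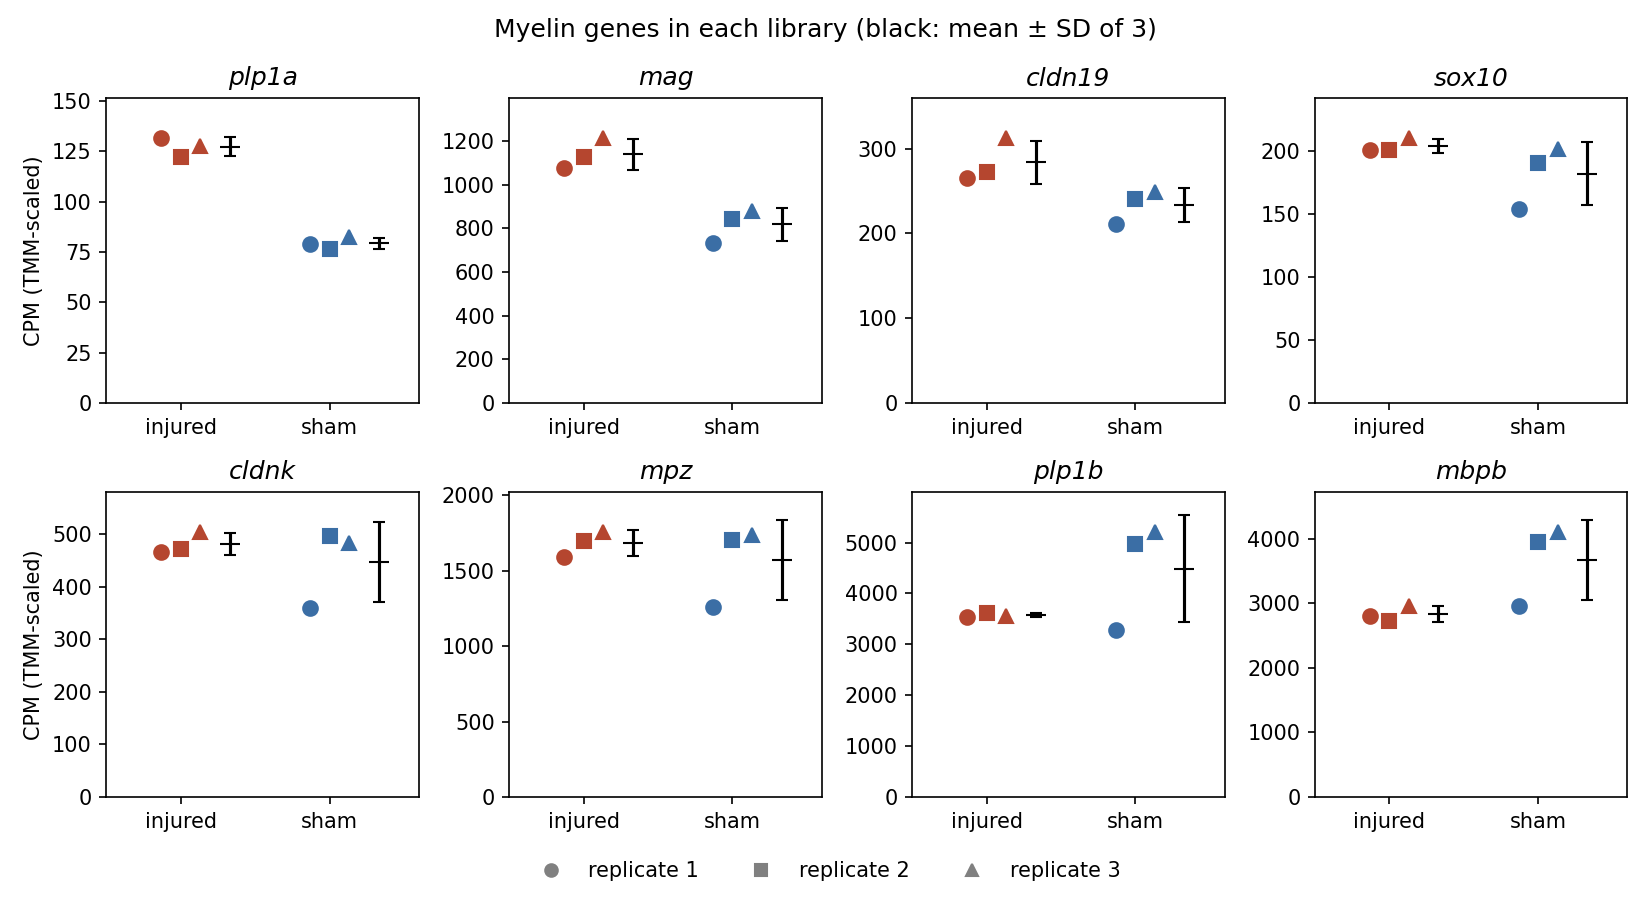
Level of each of the 8 measured myelin genes in every library, in CPM after TMM scaling, with the injured libraries left of the sham libraries and the mean and SD beside the points. The 3 injured plp1a values, 122 to 132 CPM, lie above all sham values, and for plp1b the lowest sham point, at 3275 CPM, is sham replicate 1.

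Myelin basic protein, which pulls the inner membrane faces of compact myelin together, was measured through mbpb. Its level was 2804, 2725 and 2959 CPM in injured cords, against 2962, 3942 and 4109 CPM in sham cords. The groups did not overlap, but the highest injured library and sham replicate 1 were nearly equal. The log2 fold change was -0.38 (SE 0.160, adjusted p = 0.141, edgeR), with a 95% interval from -0.77 to 0.014. DESeq2 passed the gene with all libraries (adjusted p = 0.0394), and edgeR did so without sham replicate 1, at -0.51 (adjusted p = 0.000704). With any other single library left out the log2 fold change was -0.41 to -0.29. The gene then passed in neither tool, with an adjusted p of 0.297 to 0.355 in edgeR and 0.115 to 0.211 in DESeq2.

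Myelin protein zero, an adhesion protein of the immunoglobulin family, belongs to peripheral myelin in mammals and to central myelin as well in fish. The level of mpz was 1589, 1694 and 1759 CPM in injured cords, against 1262, 1703 and 1739 CPM in sham cords. Sham replicate 1 was the lowest library and the other sham libraries lay within the range of the injured ones. The difference was 0.10 on the log2 scale (SE 0.154, adjusted p = 0.653, edgeR), with a 95% interval from -0.28 to 0.48, and it was -0.033 without sham replicate 1 (adjusted p = 0.657). In bulk tissue, fewer cells of a type and less RNA per cell cannot be told apart, which holds for each of these genes.

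Myelin-associated glycoprotein lies on the innermost myelin layer and contacts the axon. The level of mag was 1075, 1129 and 1215 CPM in injured cords, against 734, 844 and 879 CPM in sham cords. The lowest injured library was above the highest sham library. Means were 1139 ± 70.5 CPM in injured and 819 ± 75.6 CPM in sham cords (SD, n = 3 each). The log2 fold change was 0.48 (SE 0.114, adjusted p = 0.0505, edgeR), with a 95% interval from 0.20 to 0.75. The gene passed without sham replicate 1, at 0.40 (adjusted p = 0.00350), and passed in DESeq2 (adjusted p = 0.000122). With any other single library left out the log2 fold change was 0.43 to 0.53. The adjusted p was then 0.121 to 0.188 in edgeR and at most 0.00996 in DESeq2.

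Claudins form tight junctions, and both claudins of the list are expressed in myelinating glia. Claudin k, encoded by cldnk, is a marker of oligodendrocytes and Schwann cells in zebrafish. Its level was 467, 472 and 505 CPM in injured cords, against 359, 497 and 484 CPM in sham cords. As for mpz, sham replicate 1 was lowest and the remaining libraries were mixed. On the log2 scale the difference was 0.11 (SE 0.143, adjusted p = 0.60, edgeR), with a 95% interval from -0.24 to 0.45, and it was -0.026 without sham replicate 1.

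Claudin 19 is a junction protein of Schwann cells in mammals. The level of cldn19 was 266, 273 and 313 CPM in injured cords, against 211, 241 and 249 CPM in sham cords. The groups did not overlap, with injured replicate 3 the highest. Its log2 fold change was 0.28 (SE 0.105, adjusted p = 0.110, edgeR), with a 95% interval from 0.025 to 0.54. The value was 0.22 with sham replicate 1 left out (adjusted p = 0.0655), and DESeq2 with all libraries gave an adjusted p of 0.0460. With any other single library left out the log2 fold change was 0.21 to 0.33. The gene then passed in neither tool, with an adjusted p of 0.170 to 0.296 in edgeR and 0.0729 to 0.213 in DESeq2.

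**Figure D2:**
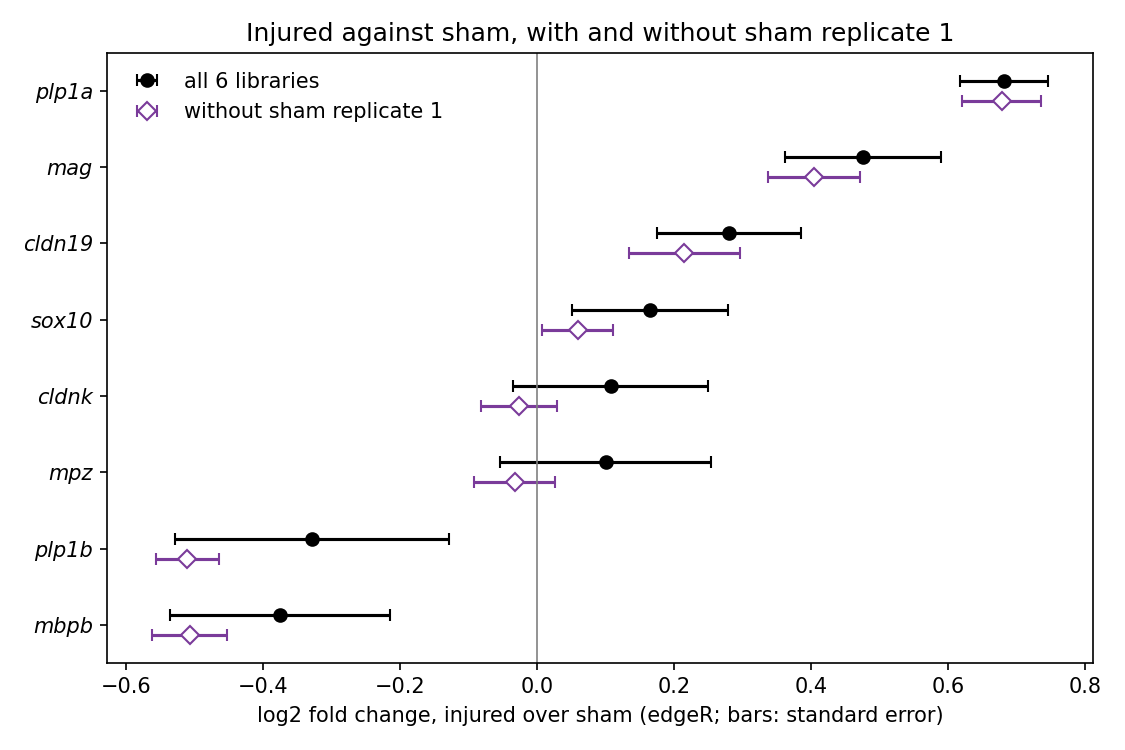
Log2 fold change, injured over sham, of the 8 measured myelin genes in edgeR, with all 6 libraries (filled circles) and without sham replicate 1 (open diamonds), and with bars of 1 standard error. Only plp1a passed with all libraries, at 0.68, and plp1b and mbpb both lie at -0.51 without sham replicate 1.

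Counted over the list, 3 genes (plp1a, mag and cldn19) were higher and 1 (mbpb) was lower with no overlap between groups, where 22.9% of all genes tested were higher and 21.8% lower with no overlap, 44.7% in all. Without sham replicate 1, edgeR called plp1a and mag higher and plp1b and mbpb lower, 2 in each direction, beside 29.0% of all genes called higher and 28.2% called lower, and the median of the 8 genes was 0.016. By DESeq2 with all libraries, plp1a, mag and cldn19 were higher and mbpb was lower, beside 14.7% of all genes called in each direction. The share of members called was thus near the share of all genes without sham replicate 1.

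Sham replicate 1 was below both other sham libraries for 7 of the 8 genes, all but plp1a, and for 43.7% of all genes tested. Its level divided by the mean of sham replicates 2 and 3 was lowest for plp1b, at 0.643, and was 0.733 for mpz, 0.736 for mbpb, 0.732 for cldnk, 0.784 for sox10, 0.852 for mag, 0.864 for cldn19 and 0.992 for plp1a. The myelin genes together took 0.953% to 1.07% of reads in genes in injured libraries, against 0.947%, 1.25% and 1.29% in sham replicates 1, 2 and 3. Sham replicate 1 therefore lay just under the lowest injured library and the other sham libraries above them all.

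Because Sox10 is needed for the differentiation of oligodendrocytes and Schwann cells, the other members were also set against sox10 reads in the same library. This scale was chosen after the data had been seen. It does not give reads per myelin-making cell, since which cells the sox10 reads came from was not measured. Per sox10 read there were 17.7, 18.0 and 17 plp1b reads in injured libraries, against 21.3, 26.1 and 25.9 in sham libraries. For mbpb there were 14.0, 13.6 and 14.1 reads per sox10 read in injured libraries, against 19.3, 20.7 and 20.4 in sham libraries. On this scale sham replicate 1 was the lowest sham library for both genes but lay above every injured library, with log2 differences of -0.47 for plp1b and -0.54 for mbpb.

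In the other direction, mag had 5.36, 5.62 and 5.78 reads per sox10 read in injured libraries, against 4.78, 4.44 and 4.37 in sham libraries, a log2 difference of 0.30. For plp1a there were 0.657, 0.610 and 0.608 reads per sox10 read in injured libraries, against 0.514, 0.403 and 0.410 in sham libraries, a log2 difference of 0.51. The groups of mpz, cldnk and cldn19 overlapped, with log2 differences of -0.061, -0.053 and 0.11. On the same scale 44.0% of all genes had groups that did not overlap, 4.77% higher and 39.2% lower. The lower values of plp1b and mbpb are thus the commoner direction on this scale, and the higher values of plp1a and mag the rarer one. In CPM the shares were 22.9% higher and 21.8% lower. Dividing by sox10 reads, whose own log2 fold change in CPM was 0.17, shifts all genes of a library alike. No test was run on this scale.

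**Figure D3:**
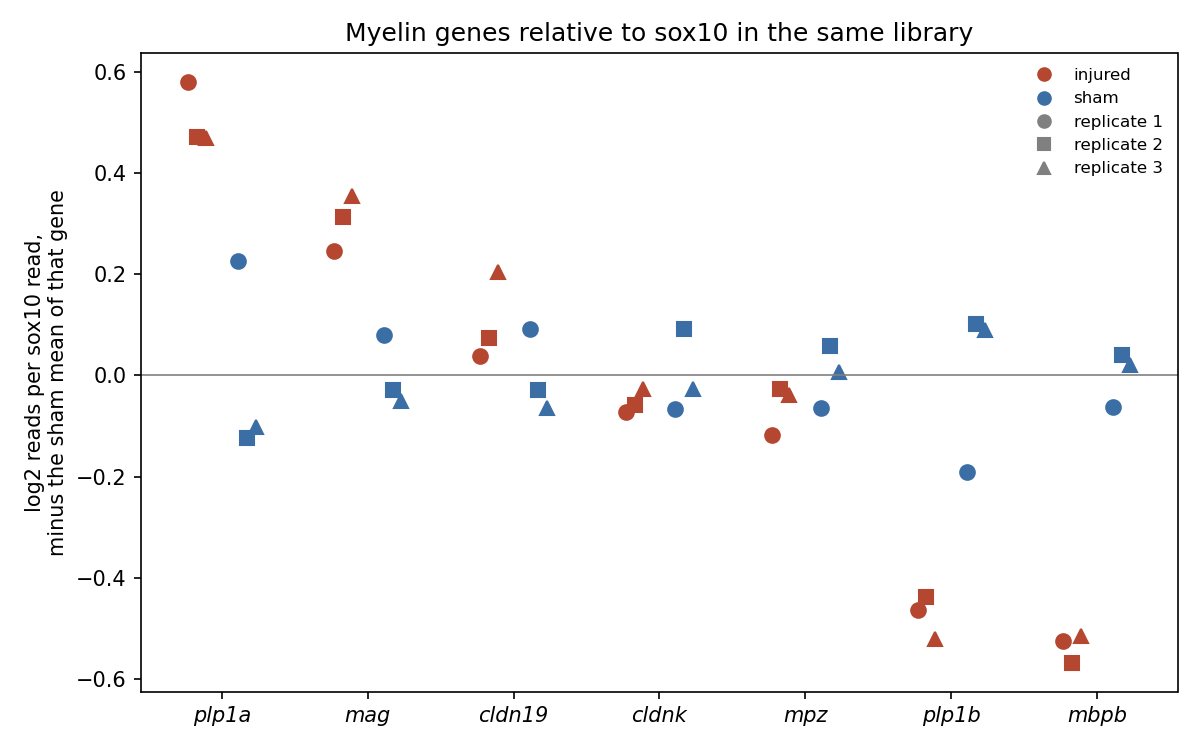
Reads of each myelin gene per sox10 read in the same library, on a log2 scale and minus the sham mean of that gene, with the injured libraries left of the sham libraries. The injured libraries lie below all sham libraries for plp1b and mbpb, by -0.47 and -0.54 on average, and above them all for plp1a and mag.

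Across the 6 libraries Pearson's r of log2 CPM was 0.983 between cldnk and mpz, and both were close to sox10 (0.942 and 0.944). It was 0.960 between cldn19 and mag, 0.950 between mbpb and plp1b and 0.927 between mag and plp1a, and it was lowest between mbpb and plp1a, at -0.740. Over the 5 libraries without sham replicate 1 it was 0.768 between cldnk and mpz, 0.121 between cldnk and sox10 and 0.286 between mpz and sox10, against 0.924 between cldn19 and mag, 0.985 between mbpb and plp1b, 0.949 between mag and plp1a and -0.962 between mbpb and plp1a. The 6 points of each pair are the same 6 libraries, and they hold both the injury difference and the low sham replicate 1. Among 9128 other genes that averaged 10 CPM or more, those whose profile was most like the mean profile of the members were scdb (r = 0.992), which encodes a stearoyl-CoA desaturase, zgc:113337 (0.988), sept7a (0.985), a septin gene, syt9b (0.984), a synaptotagmin gene, and pdxka (0.983), a pyridoxal kinase gene. Of these, scdb is also on the lipid synthesis list and sept7a on the list of other sheath genes. Without sham replicate 1 their r with the members' profile was 0.735 to 0.928.

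Of the other lists, read beside the 5.81% of all genes called higher and 4.83% called lower, that of other protein genes of the sheath was near these shares. Of 23 tested, 2 rose, 1 fell and 20 did not pass, with a median log2 fold change of 0.056. The connexin gene cx47.1, whose product forms gap junctions of oligodendrocytes, averaged 173 ± 1.40 CPM in injured and 127 ± 8.38 CPM in sham cords (log2 fold change 0.44, SE 0.0733, adjusted p = 0.0345). The gene gpm6bb averaged 307 ± 17.8 CPM in injured and 219.9 ± 5.18 CPM in sham cords (0.48, SE 0.0780, adjusted p = 0.0345). The gene aspa encodes aspartoacylase, which frees acetate for lipid synthesis in mammalian oligodendrocytes, and it averaged 7.69 ± 1.29 CPM in injured and 12.4 ± 0.988 CPM in sham cords (-0.69, SE 0.159, adjusted p = 0.0471). Next by adjusted p was cd81b, a tetraspanin gene, at -0.69 (adjusted p = 0.0642), which did not pass with all libraries in edgeR, but did at -0.87 without sham replicate 1 (adjusted p = 0.000603) and in DESeq2 with all libraries (adjusted p = 0.00801). When sham replicate 1 was left out, 7 of these genes were higher and 7 lower, near the 29.0% and 28.2% of all genes in that fit.

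Of 25 tested genes that make myelin lipids, 3 rose, 4 fell and 18 did not pass, beside the same 5.81% and 4.83% of all genes, and the median log2 fold change was -0.28. The elongase gene elovl1b averaged 632 ± 7.76 CPM in injured and 421 ± 22.8 CPM in sham cords (0.59, SE 0.0844, adjusted p = 0.0299), the ceramide desaturase gene degs1 changed by 0.50 (adjusted p = 0.0324) and the ceramide synthase gene cers2a by 0.60 (adjusted p = 0.0409). The gene hmgcs1, an early enzyme of cholesterol synthesis, had 65.8, 60.9 and 55.5 CPM in injured cords, against 118, 317 and 248 CPM in sham cords (-1.91, SE 0.351, adjusted p = 0.0378), so every injured library was below sham replicate 1, which was itself below the other sham libraries. The other 3 that fell, sqlea (-1.58), fdft1 (-1.26) and lss (-1.76), also encode enzymes of cholesterol synthesis and are named beyond the naming rule because they passed. Of the same pathway, hmgcra (-1.07, adjusted p = 0.0541) and hmgcrb (0.29, adjusted p = 0.0568) did not pass and differed in sign. Among the fatty acid elongase genes, elovl4a (-0.23) and elovl4b (-0.38) did not pass either and had the opposite sign to elovl1b. These last 4 were chosen after their values were seen. Cholesterol is made by many cell types, so the list is not specific to glia. Leaving out sham replicate 1, 5 lipid genes were higher and 13 lower, beside 29.0% and 28.2% of all genes.

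Among 31 tested regulators of the oligodendrocyte lineage, 6 rose, 2 fell and 23 did not pass, beside 5.81% and 4.83% of all genes, with a median of 0.076. The largest shift among the 4 with the lowest adjusted p was in sox8b, a close relative of sox10, with 29.2, 33.6 and 31.5 CPM in injured cords, against 16.3, 13.4 and 15.6 CPM in sham cords. No sham library came near the injured range, and the log2 fold change was 1.06 (SE 0.111, adjusted p = 0.0281). The gene tcf7l2, a Wnt effector that acts in oligodendrocyte differentiation in mice, had 32.6, 33.8 and 36.3 CPM in injured cords, against 20.4, 13.8 and 17.1 CPM in sham cords (1.00, SE 0.154, adjusted p = 0.0312). The SoxE gene sox9a (0.62, adjusted p = 0.0360) and sox5 (0.50, adjusted p = 0.0390) also rose. Beyond the naming rule, olig4 (1.51) and zeb2a (0.36) passed as higher, and id4 (-0.99) and yy1b (-0.44) as lower. Many of these regulators are also expressed in neural stem cells and other glia. Without sham replicate 1, 11 of the list were higher and 10 lower, near the 29.0% and 28.2% of all genes.

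The list for axon-glia signals and nodes of Ranvier holds axonal and glial genes. Of its 27 tested genes, 4 rose, 5 fell and 18 did not pass, beside 5.81% and 4.83% of all genes, and the median was -0.27. The gene nfasca encodes a neurofascin, an adhesion protein of nodes and paranodes, and had 87.6, 90.3 and 110.5 CPM in injured cords, against 182, 171 and 179 CPM in sham cords (-0.88, SE 0.106, adjusted p = 0.0281). The nodal sodium channel gene scn8ab averaged 272 ± 31.8 CPM in injured and 518 ± 59.3 CPM in sham cords (-0.93, SE 0.13, adjusted p = 0.0294). For both genes sham replicate 1 lay with the other sham libraries, well above the injured ones. The neuregulin gene nrg2a fell by 0.91 on the log2 scale (adjusted p = 0.0363), and epb41l3b, a membrane skeleton gene whose mammalian relative acts at paranodes, rose by 0.45 (adjusted p = 0.0294). Beyond the naming rule, nrg1 (-1.03) and erbb4a (-0.80) fell, and adgrg1 (0.74), jam3b (1.18) and cntn1a (0.43) rose. The paralogs of epb41l3b and cntn1a had the opposite sign. These were epb41l3a (-0.64, adjusted p = 0.0791) and cntn1b (-0.83, adjusted p = 0.0644), which did not pass in edgeR. DESeq2 called both lower (adjusted p = 0.0130 and 0.00423). With sham replicate 1 left out, 7 genes of the list were higher and 15 lower, beside 29.0% and 28.2% of all genes.

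**Figure D4:**
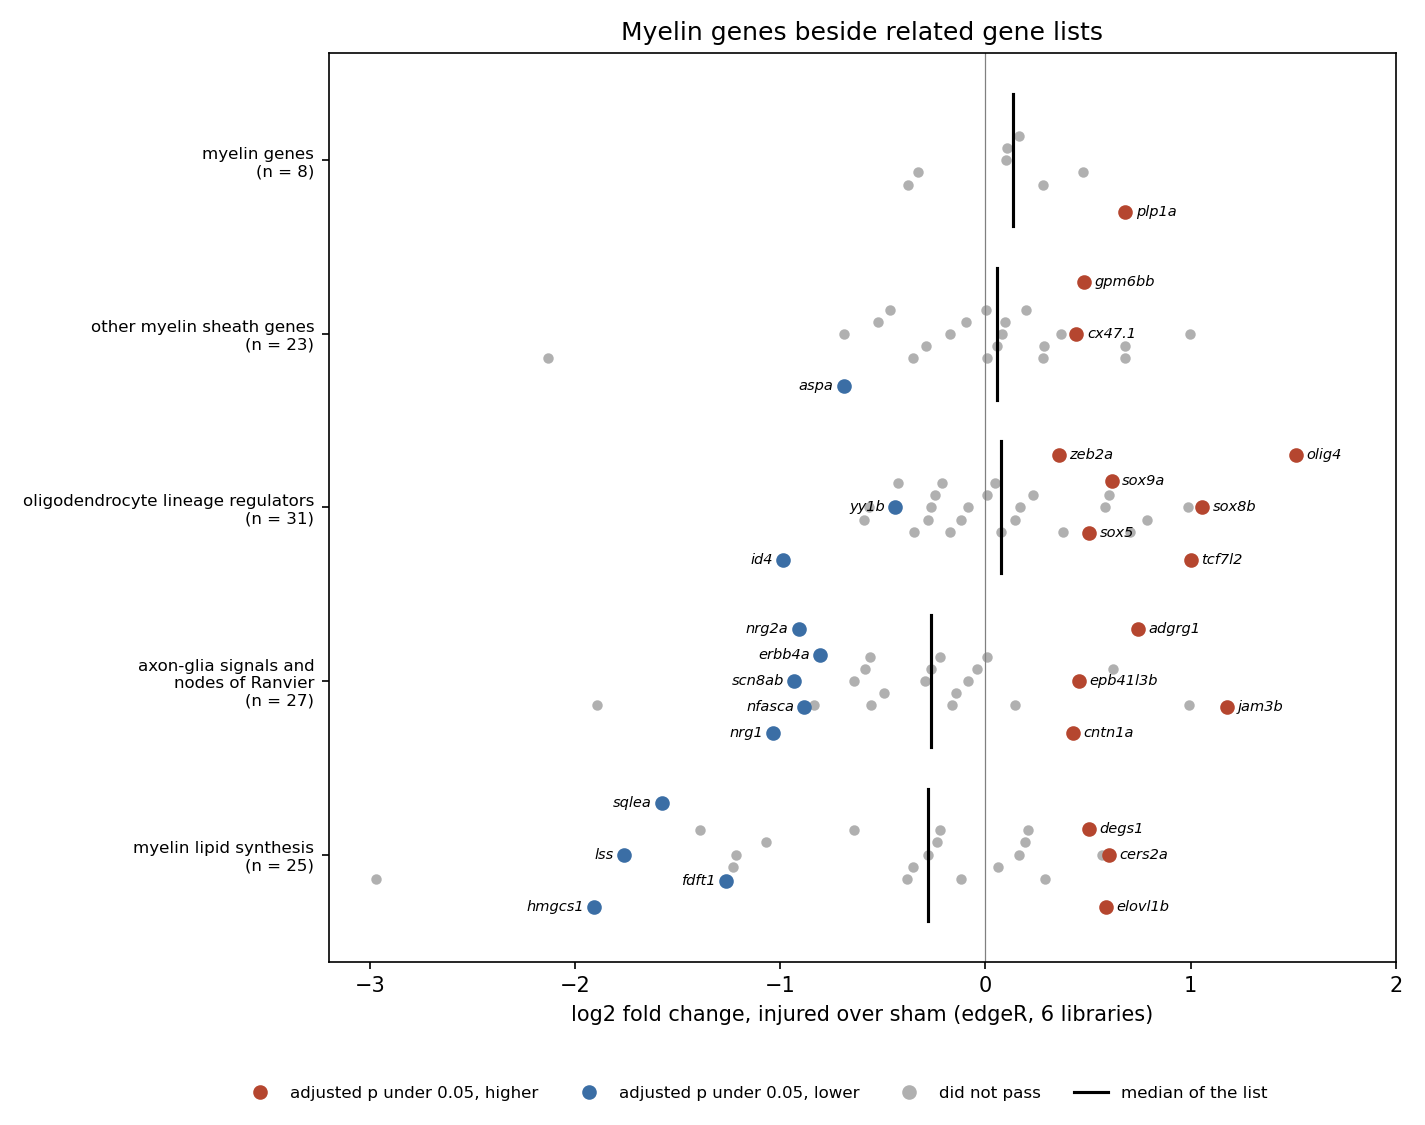
Log2 fold change, injured over sham, of every tested gene of the myelin list and of the other 4 lists, in edgeR with 6 libraries, with genes that passed in colour and the median of each list as a bar. Medians lie at 0.14 for the myelin genes, 0.056 for other sheath genes, 0.076 for lineage regulators, -0.27 for axon-glia and node genes and -0.28 for lipid synthesis.

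Markers of other cells moved beside these values. Of the list for Schwann cells and peripheral nerve, 1 of 11 tested genes passed, foxd3, which averaged 55.0 ± 1.87 CPM in injured and 26.2 ± 5.33 CPM in sham cords (1.07, adjusted p = 0.0301). Of all genes tested in this fit, 5.81% were called higher and 4.83% lower. The gene egr2a was listed at 0 in every library, which does not show absence of expression. For egr2b there were 158, 196 and 144 reads in injured libraries, against 106, 92 and 82 in sham libraries. Its log2 fold change was 0.58 (adjusted p = 0.102, edgeR). The list had 7 of 11 genes with a log2 fold change above 0. Those below 0 were pmp22b (-0.29), pou3f1 (-0.22), dhh (-0.55) and tfap2a (-0.19), and none of them passed. In all, 4 of the 11 were higher and 0 lower with no overlap, beside 22.9% and 21.8% of all genes. DESeq2 called 3 higher and 0 lower, beside 14.7% of all genes in each direction. The list summed to 0.183% to 0.188% of reads in genes in injured libraries, against 0.146% to 0.186% in sham libraries, mostly from fabp7a, which is also on the ependymo-radial glia list. Of 4 tested oligodendrocyte progenitor genes, 0 passed in edgeR, with a summed share of 0.0203% to 0.0237% in injured libraries, against 0.0167% to 0.0197% in sham libraries. By DESeq2, 2 of these 4 were higher. The sum came mostly from olig2. In log2 fold change 3 of the 4 were above 0. The gene olig1 went the other way, with 105, 127 and 108 reads in injured libraries, against 84, 167 and 188 in sham libraries. All 4 are also on the list of lineage regulators.

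Neuronal genes summed to 1.41% to 1.57% of reads in genes in injured libraries, against 2.01% to 3.38% in sham libraries, and 2 of 13 rose and 4 fell. The edgeR counts with all 6 libraries, for this list and the next ones, stand beside 5.81% of all genes called higher and 4.83% called lower. Genes of microglia and macrophages summed to 0.828% to 0.992% in injured libraries, against 0.205% to 0.486% in sham libraries, mostly from apoeb. Of this list, 4 of 18 rose and 0 fell, with apoeb 3.91-fold and mpeg1.1 1.63-fold higher in injured cords. Of these, mpeg1.1 is named beyond the naming rule. By that rule lcp1 (1.67-fold, adjusted p = 0.0651, edgeR) and csf1ra (1.42-fold, adjusted p = 0.106, edgeR) are also named, and neither passed. In log2 fold change 17 of 18 were above 0. The exception, ctssb.1, had 570, 694 and 527 reads in injured libraries, against 2087, 325 and 319 in sham replicates 1, 2 and 3. Of ependymo-radial glia genes, 3 of 13 rose and 0 fell. Skeletal muscle genes took 1.95% to 6.03% in injured libraries, against 1.11% to 3.38% in sham libraries, with 0 of 29 passing, and erythrocyte genes took 0.0610% to 0.117% in injured libraries, against 0.0984% to 0.193% in sham libraries, with 0 of 8 passing. In sham replicates 1, 2 and 3, neuronal genes took 2.01%, 3.01% and 3.38%, and microglia and macrophage genes 0.486%, 0.205% and 0.207%. Muscle genes took 3.38%, 1.56% and 1.11%, and erythrocyte genes 0.0984%, 0.177% and 0.193%. In these lists sham replicate 1 was the sham library nearest to the injured ones. For ependymo-radial glia genes, at 2.05%, 2.69% and 2.34%, it was the furthest. The counts of these lists also rested on sham replicate 1. In the edgeR fit without that library, where 29.0% of all genes were higher and 28.2% lower, 18 of 18 microglia and macrophage genes, 16 of 29 muscle genes, 5 of 11 Schwann cell genes, 4 of 13 ependymo-radial glia genes, 3 of 13 neuronal genes and 1 of 4 progenitor genes were higher, and 9 neuronal, 7 erythrocyte, 2 Schwann cell, 2 ependymo-radial glia and 1 progenitor genes were lower. The part of these cells in the values of the myelin genes was not tested.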

How the data were processed

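RNA of 3 injured and 3 sham spinal cord samples was measured. The deposited values are raw counts of reads per gene symbol, which the authors made from single-end reads aligned to danRer10 with TopHat2, filtered on mapping quality with SAMtools 1.3.1 and counted with HTSeq 0.6.0. The sources used here give neither the annotation nor the strand setting, so overlapping and antisense genes cannot be told apart, and paralogs with near-identical stretches may be undercounted. The last 5 rows of each library, uncounted reads, were left out. Among them, reads without a gene were 41.2% to 42.1% of all reads listed in injured libraries. In sham replicates 1, 2 and 3 they were 43.8%, 50.9% and 51.3%, so sham replicate 1 lay nearest to the injured libraries. Whether this bears on the values of the genes was not tested.

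In each pair of replicates the counts differed beyond sampling noise (chi-square over its degrees of freedom 11.6 to 163). This value was 77.1 and 52.6 for injured replicate 1 with injured replicates 2 and 3, and 11.6 between those. It was 126 and 163 for sham replicate 1 with sham replicates 2 and 3, and 16.8 between those. In R 4.3.3, edgeR 4.0.16 kept 12804 genes (filterByExpr, minimum count 10, minimum total 15), applied TMM scaling and fitted the quasi-likelihood model on injury alone. Benjamini-Hochberg adjustment covered every gene tested, and 0.05 was the threshold for adjusted p. Standard errors were derived from fold changes and F statistics. Log2 CPM for correlations used a prior count of 2. The scripts were tested on simulated data.

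Alternatives were RLE, upper-quartile and library-total scaling, TMM without skeletal muscle genes, DESeq2 1.42.0, limma-voom (limma 3.58.1) with sample weights, no filter, at least 10 counts in every library, a replicate block, and each library left out in edgeR and DESeq2. Reads per sox10 read and shares of the summed myelin reads, and correlations without sham replicate 1, were chosen after seeing the data. The members and the gene lists were chosen with earlier results of these data known. The genes named were all members, up to 4 genes of each pathway list by adjusted p, up to 3 markers of a list by mean CPM, and the 5 genes of at least 10 CPM most correlated with the members' mean profile. The few other genes named were chosen after their values were seen. Sequences and coordinates were not used here, and 1 planned comparison is not reported here.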

Additional observations from a re-analysis of the deposited data

How the results depend on the processing

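Counts moved most with the tool and with sham replicate 1. For all genes, higher and lower in injured cords, library totals gave 456 and 1006, DESeq2 1878 and 1888, and limma-voom with sample weights 3740 and 3805. Myelin genes called higher numbered 2 under RLE scaling, upper-quartile scaling, TMM without skeletal muscle genes and 10 counts in every library, through mag, and 3 under DESeq2 and limma-voom. Those called lower numbered 1 under DESeq2 and 2 under limma-voom. Higher and lower counts were 5 and 3 (DESeq2) and 7 and 8 (limma-voom) for other sheath genes, and 5 and 9 (DESeq2) and 5 and 13 (limma-voom) for lipid synthesis. They were 12 and 3 (DESeq2) and 12 and 10 (limma-voom) for lineage regulators, and 5 and 13 (DESeq2) and 7 and 15 (limma-voom) for axon-glia and node genes. With no filter, 0 other sheath genes were lower, and under library totals 2 axon-glia and node genes were higher.

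With 1 library left out, in edgeR or DESeq2, all genes called ranged from 0 to 3750 higher and 0 to 3647 lower, with up to 3628 and 3405 in DESeq2. The ranges were 0 to 3 and 0 to 2 for the myelin genes, 0 to 9 and 0 to 9 for other sheath genes, 0 to 5 and 0 to 13 for lipid synthesis, 0 to 12 (11 in edgeR) and 0 to 10 for lineage regulators, and 0 to 7 and 0 to 15 for axon-glia and node genes. The edgeR counts were 0 without any library other than sham replicate 1, where DESeq2 still called 859 to 1060 genes higher and 786 to 918 lower, and 2 myelin genes higher and 0 lower.

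The signs of mpz and cldnk turned in some settings: to -0.0023 and -0.015 under limma-voom, to -0.033 and -0.026 without sham replicate 1 in edgeR, to -0.031 and -0.024 without it in DESeq2, and to -0.061 and -0.053 per sox10 read. With 1 library left out, edgeR gave at most 0.18 for mpz and 0.19 for cldnk. Neither gene passed in these edgeR and DESeq2 fits. The cause of these changes was not tested.

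No pairing by replicate number was seen, since deviations of same-numbered libraries correlated at -0.16, -0.026 and 0.067. Those of differently numbered libraries correlated at -0.21 to 0.18. With 3 libraries a group these values cannot exclude that samples were paired. With the replicate block 0 genes passed, in each list and over all genes, where 2367 genes were higher and 1955 lower at an unadjusted p under 0.05, and plp1a had an adjusted p of 0.0847. A planned ratio of mbpa to mbpb was not run, since mbpa was not analysed here. Small differences are not detectable with 3 libraries a group: the 95% interval of mpz, for example, reaches 0.48.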

Other observations

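The makeup of the summed myelin reads was set out by library. These shares sum to 100% and so move together, and they were computed after the data had been seen. In injured libraries plp1b took 35.2%, 35.3% and 33.5% of the reads of the 8 genes, against 36.2%, 39.9% and 40.3% in sham replicates 1, 2 and 3, and mbpb took 27.8%, 26.6% and 27.8% in injured libraries, against 32.8%, 31.6% and 31.7% in sham libraries. Both were lower in every injured library than in every sham library, and each of the other 6 genes had a higher share in every injured library. For mag the shares were 10.7%, 11% and 11.4% in injured libraries, against 8.12%, 6.77% and 6.78% in sham libraries. For mpz they were 15.8%, 16.6% and 16.5% in injured libraries, against 14.0%, 13.7% and 13.4% in sham libraries. Of all genes tested, 31.8% had groups that did not overlap, in either direction, when set against the summed myelin reads. Nearly all of those genes lie outside the sum and are not bound to move together, so that share is no like background for the 8 genes.

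The direction for mpz rested on which genes were summed. With plp1b and mbpb left out of the sum, mpz took 42.6% to 43.5% in injured libraries, against 45.1% to 47.9% in sham libraries, and cldnk was also lower in every injured library. On that scale plp1a and mag remained higher in every injured library, at 3.10% to 3.53% for plp1a in injured libraries, against 2.16% to 2.82% in sham libraries, and the groups of cldn19 and sox10 overlapped. The share of all genes without overlap on that scale was not computed. Whether the members differ from other genes there was therefore not tested.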
